A study of Mus musculus with 4 samples.

Results

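Ankrd1, Xirp1, Xirp2, Enah, Flnc, Cd44 and Tnfrsf12a are 7 genes that cardiomyocytes are known to switch on when the heart muscle is injured. They were taken by name from the 22574 genes of a matrix of single-nucleus RNA sequencing (snRNA-seq) of 8585 cardiomyocyte nuclei. Their levels after myocardial infarction (MI) and Sham surgery were compared in each cardiomyocyte population, to tell a general rise from one limited to the population labelled CM5, which the study describes as the cells that respond to injury. Of the 7 genes, 6 were measured well enough for a comparison, and Xirp1 was nearly undetected.

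The study concerns Nrf1, a stress-responsive transcription factor whose gene is Nfe2l1, and the neonatal heart after injury. The 4 libraries were WT-Sham, KO-Sham, WT-MI and KO-MI, with 1 library per group. All mice carried loxP-flanked Nrf1 alleles (Nrf1 fl/fl), and those labelled KO also carried the aMHC-Cre transgene, in which the alpha myosin heavy chain promoter drives Cre recombinase in cardiomyocytes. The WT label therefore stands for Nrf1 fl/fl mice without Cre, although the genotype field of these libraries reads wildtype. The strain is given as C57BL/6 in the protocol, while the strain field of the labels has a different ending for each library. Surgery was at postnatal day 3, with the left anterior descending artery tied off for MI, and hearts were collected at postnatal day 4, 1 day later. Each library pooled tissue below the ligation plane from 4 to 6 hearts, so the spread between animals cannot be seen. KO and WT are used here as the names on the libraries.

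The libraries held 1406 (WT-Sham), 3328 (KO-Sham), 2003 (WT-MI) and 1848 (KO-MI) nuclei and between 4984625 and 9106522 unique molecular identifiers (UMIs), each of which stands for 1 captured RNA molecule. A level is given below in CPM, that is UMIs per 1000000 UMIs of the same sum of nuclei, with a 95% Poisson interval in parentheses. Shares of nuclei carry a Clopper-Pearson interval, and all intervals cover counting error only. Because there was 1 library per group, no test was made and no difference has a replicate check. Summed over all nuclei, Nfe2l1 was at 62.2 CPM in WT-Sham, 50.5 in KO-Sham, 47.4 in WT-MI and 55.3 in KO-MI, so the library labelled KO-MI was not below that labelled WT-MI. Which exons were deleted is not given in the sources used here, and where the Nfe2l1 UMIs fall was not examined. Its level therefore does not check the deletion. A barcode occurred in 2 libraries in 9 cases. The cardiomyocyte markers fixed by name (8 genes) had UMIs in every library and summed to between 30093 and 34671 CPM. Markers of other cells were found too: the 5 red blood cell markers were detected in 96.0% (KO-Sham) to 99.9% (WT-MI) of nuclei, and the 11 myeloid markers in 15.6% (KO-Sham) to 51.9% (WT-MI). The 7 fibroblast markers were detected in 88.9% (KO-Sham) to 95.8% (KO-MI) of nuclei. For the 7 endothelial markers the share was 24.9% (KO-Sham) to 31.4% (WT-MI).

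The populations are the labels that the authors deposited. CM1 is the largest and holds the nuclei first called CM1 and CM3, CM2 and CM4 are smaller, and CM5 held 89 nuclei in WT-Sham, 234 in KO-Sham, 339 in WT-MI and 355 in KO-MI. These labels were set on the expression of the same nuclei, so a nucleus with high injury genes could be labelled CM5 for that reason. The contrast between CM5 and CM1 within a library is therefore a description, and each MI over Sham ratio holds for nuclei that received the same label.

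The injury genes fall into 4 roles. Ankrd1 encodes cardiac ankyrin repeat protein, which binds titin in the sarcomere and is also found in the nucleus, and it is a well-known target of stretch and of YAP and TEAD. Xirp1 and Xirp2 encode the actin-binding Xin repeat proteins of the intercalated disc. Enah encodes Mena, which promotes the lengthening of actin filaments, and Flnc encodes filamin C, which crosslinks actin at the Z-disc. Cd44 and Tnfrsf12a are receptors at the cell surface, Cd44 for hyaluronan and osteopontin and Tnfrsf12a (Fn14) for the cytokine TWEAK. In infarcted hearts such genes are known for their expression in the border zone, the living muscle beside the infarct.

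Over all nuclei, the 6 measured genes were all higher after MI under both genotype labels. A gene was called higher when it had 20 or more UMIs over both libraries, a ratio of 2-fold or more and an interval of the log2 ratio above 0. By this rule 5.48% of all genes tested were called higher in WT-MI over WT-Sham and 5.64% in KO-MI over KO-Sham. In CM1 alone, 4 of the 7 genes were called higher under the WT label, where 3.96% of all genes were, and 5 under the KO label, where 4.03% were. Outside CM5 as a whole the count was 5 under each label, with 4.17% of all genes called under the WT label and 3.91% under the KO label. In CM4 it was 6 (10.8% of all genes) and 5 (5.41%), and in CM5 it was 6 under both labels (7.39% and 10.1%). CM2 is small, and 4 (WT label) and 5 (KO label) of the genes reached 20 UMIs there, of which 1 (3.31% of all genes) and 4 (2.96%) were called.

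The genes that missed the call in CM1 were Enah and Flnc under the WT label and Flnc under the KO label. Their ratios were below 2-fold with intervals above 0, and at a limit of 1.5-fold all 6 genes passed in CM1 under both labels. The median log2 ratio of the 6 genes was 1.62 (WT label) and 1.48 (KO label) in CM1, 2.42 and 2.44 in CM4, and 2.24 and 2.21 in CM5. The median of all genes tested lay between -0.07 and 0.16 in the same comparisons. Higher levels after MI were thus seen in CM1, CM4 and CM5, and the size of the difference by population varied from gene to gene.

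**Figure D1:**
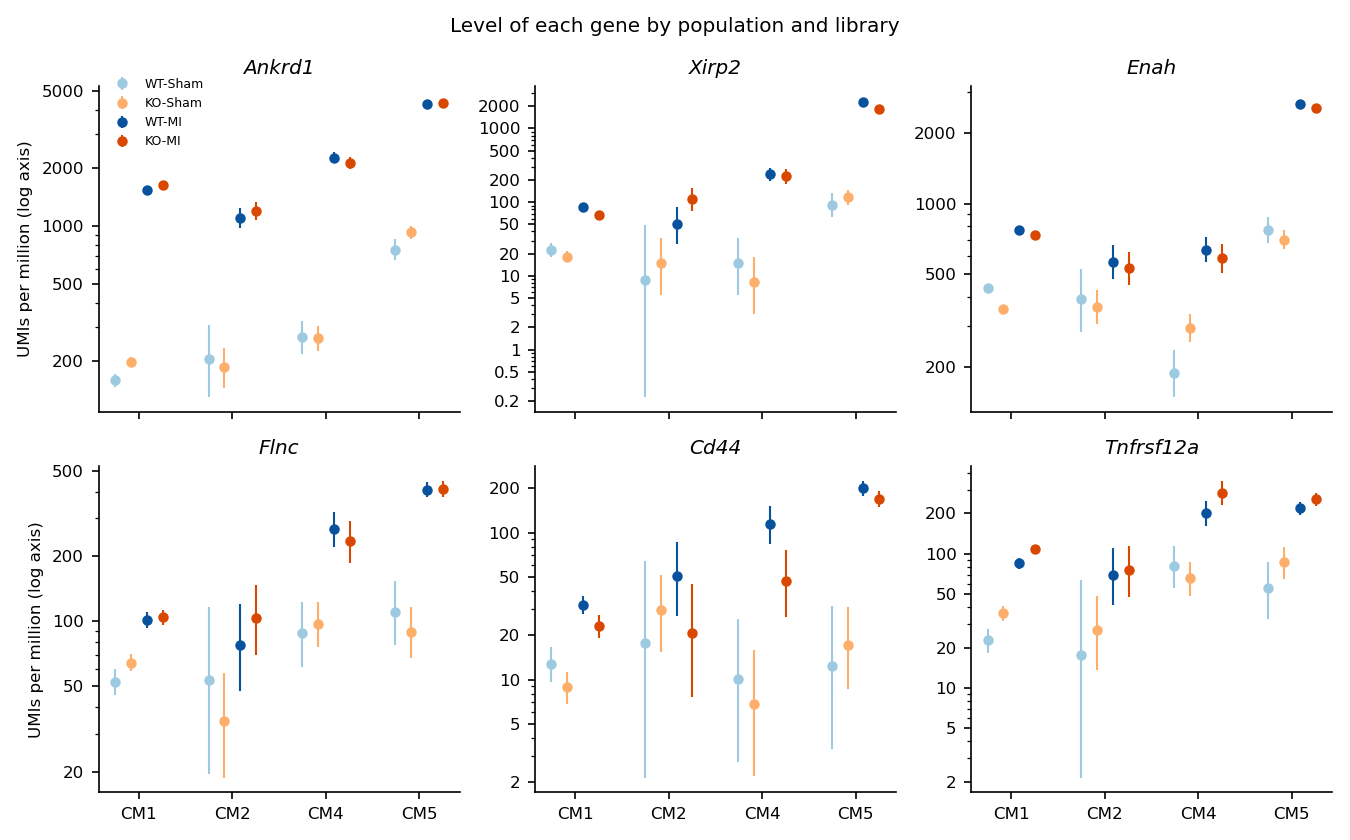
Level of the 6 measured injury genes in CPM (log axis, a different range in each panel) by population and library. Points are sums over nuclei and bars are 95% Poisson intervals. In CM1, CM4 and CM5 the MI libraries (dark) lie above the Sham libraries (light) for all 6 genes.

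Ankrd1 (ENSMUSG00000024803.9) lies on the minus strand of chromosome 19, 36111961 to 36120099 (GRCm38). Its level in CM1 was 158 CPM (147 to 171) in WT-Sham, 198 (188 to 209) in KO-Sham, 1528 (1497 to 1561) in WT-MI and 1638 (1604 to 1672) in KO-MI. In CM5 it was 753 (662 to 854), 925 (852 to 1003), 4261 (4156 to 4367) and 4333 (4225 to 4444) in the same order. Both MI libraries lay above both Sham libraries in each population. CM1 of the MI libraries was also above CM5 of the Sham libraries, by a log2 ratio of 1.02 (0.84 to 1.21) under the WT label and 0.82 (0.70 to 0.95) under the KO label.

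The log2 ratio of MI over Sham for Ankrd1 was 3.27 (3.15 to 3.39) in CM1, 3.09 (2.79 to 3.39) in CM4 and 2.50 (2.32 to 2.69) in CM5 under the WT label. Under the KO label it was 3.05 (2.97 to 3.13), 3.02 (2.78 to 3.25) and 2.23 (2.10 to 2.35). Ankrd1 was the only one of the 6 genes whose ratio was smaller in CM5 than in CM1 beyond counting error under both labels, by 0.77 (0.55 to 0.99) and 0.82 (0.67 to 0.97) on the log2 scale. Under the WT label the size of this difference depended on the setting: the CM5 ratio minus the CM1 ratio was -0.35 in nuclei thinned to 1000 UMIs, -0.34 without nuclei that had a UMI of a myeloid or endothelial marker, and -0.28 without the 10 nuclei richest in Ankrd1 in each sum, against -0.81, -0.88 and -0.70 under the KO label. Within a library, CM5 exceeded CM1 by 4.75-fold in WT-Sham and 4.67-fold in KO-Sham but by 2.79-fold in WT-MI and 2.65-fold in KO-MI. Ankrd1 was detected in most CM1 nuclei after MI, although how much of it was RNA from outside the nucleus was not tested. After thinning each nucleus to 1000 UMIs, the share was 12.5% in WT-Sham, 14.6% in KO-Sham, 61.9% in WT-MI and 67.3% in KO-MI. Unthinned, these shares were 28.7%, 30.5%, 90.3% and 92.7%, at median depths of 3749, 2632, 4042 and 4043.5 UMIs per CM1 nucleus.

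Because Ankrd1 is a known TEAD target and the members were higher together, the 250 bases before the RefSeq start (GRCm38.p6) of each promoter in the table used were searched on both strands. The search covered GGAATG, the core that TEAD factors bind. It also covered the AP-1 motif (TGANTCA), in which N is any base. The GATA factors were represented by AGATAA. The antioxidant response element, which Nrf1 is known to bind, was searched as TGACNNNGC, and the CArG box and the MEF2 motif were added. A promoter was present for 6 of the 7 genes, with 2 starts for Flnc. The Ankrd1 window held 2 TEAD cores, whose first bases lay 210 and 123 bases before the start. They are shown with 12 bases on either side, the core in capitals, read on the minus strand at chr19:36120037-36120066 and chr19:36119950-36119979:
Ankrd1 first core: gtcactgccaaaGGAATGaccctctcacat
Ankrd1 second core: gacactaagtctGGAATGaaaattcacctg
Both stretches overlap an exon of 1 of the 6 Ankrd1 transcripts of GENCODE M21 and no exon of the others. A TEAD core was found in the windows of 12.6% of all 32851 promoters, an AP-1 motif in 6.75%, a GATA motif in 9.99%, an antioxidant response element in 10.2%, a MEF2 motif in 2.92% and a CArG box in 1.47%. A match describes letters and not a bound site. The Ankrd1 window also held 1 GATA motif and 1 antioxidant response element. For each, the 30 bases around it overlap an exon of all 6 Ankrd1 transcripts.

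Xirp1 (ENSMUSG00000079243.3, chromosome 9, 120013755 to 120023598, minus strand) had 0 UMIs in WT-Sham, 2 in KO-Sham, 3 in WT-MI and 3 in KO-MI over all nuclei. A count of 0 among the UMIs of WT-Sham allows a level of up to 0.602 CPM (3 UMIs). No ratio is given, since both libraries of each pair were at or under 3 UMIs. In GENCODE M21 the whole gene lies inside the annotated span of Cx3cr1, a myeloid chemokine receptor gene, on the same strand. How reads that match both genes were counted is not given in the sources used here.

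Xirp2 (ENSMUSG00000027022.13, chromosome 2, 67446002 to 67526614, plus strand) was, after MI, the member with the largest share of its UMIs in CM5. In CM1 its level was 22.6 CPM (18.3 to 27.7) in WT-Sham, 18.1 (15.2 to 21.5) in KO-Sham, 86.9 (79.5 to 94.8) in WT-MI and 66.3 (59.6 to 73.6) in KO-MI. Its level in CM5 was 92.2 (62.2 to 132), 116 (91.5 to 146), 2296 (2219 to 2374) and 1811 (1742 to 1883) in the same order. The MI libraries exceeded the Sham libraries in both populations. CM1 of MI against CM5 of Sham gave a log2 ratio of -0.09 (-0.62 to 0.50) under the WT label and -0.81 (-1.18 to -0.43) under the KO label, where CM1 of MI was thus the lower.

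The log2 ratio of MI over Sham for Xirp2 was 1.94 (1.62 to 2.27) in CM1 and 4.64 (4.12 to 5.21) in CM5 under the WT label, and 1.87 (1.58 to 2.17) and 3.96 (3.63 to 4.31) under the KO label. The ratio in CM5 exceeded that in CM1 by 2.70 (2.08 to 3.35) and 2.09 (1.64 to 2.55). CM4 resembled CM5 in the ratio, with 3.98 (2.81 to 5.46) and 4.77 (3.58 to 6.26), although its Sham levels rested on 6 UMIs in each library. The ratio in CM5 minus that in CM4 was 0.66 (-0.91 to 1.96) and -0.81 (-2.34 to 0.43), so the 2 ratios could not be told apart. The level in CM4 after MI was far below that in CM5, at 240 CPM (195 to 291) in WT-MI and 224 (177 to 280) in KO-MI. There the 10 nuclei with the most Xirp2 held 56.4% and 70.1% of its CM4 UMIs. Without nuclei that had a UMI of a myeloid or endothelial marker, an alternative chosen after seeing the data, the CM5 ratios were 3.80 and 3.08.

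The antisense gene Gm13601 overlaps Xirp2 on the other strand. The use of strand in the counting is not given in the sources used here. Xirp2 was also unevenly spread within CM5: the 10 nuclei with the most Xirp2 held 35.5% of its CM5 UMIs in WT-MI and 38.3% in KO-MI, and 1 nucleus of WT-MI held 343 UMIs. For Ankrd1 the 10 richest CM5 nuclei held 9.26% and 9.17%. In thinned CM5 nuclei the variance of Xirp2 over its mean was 10.2 in WT-MI and 9.44 in KO-MI, against 2.12 and 2.39 for Ankrd1. A Xirp2 UMI was found in 51.3% and 40.6% of thinned CM5 nuclei and in 7.77% and 6.19% of thinned CM1 nuclei of WT-MI and KO-MI.

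The 250 bases before the Xirp2 start (GRCm38.p6, chr2:67445752-67446001, plus strand) are shown because they held an AP-1 motif, TGACTCA, and a MEF2 motif, both in capitals:
Xirp2: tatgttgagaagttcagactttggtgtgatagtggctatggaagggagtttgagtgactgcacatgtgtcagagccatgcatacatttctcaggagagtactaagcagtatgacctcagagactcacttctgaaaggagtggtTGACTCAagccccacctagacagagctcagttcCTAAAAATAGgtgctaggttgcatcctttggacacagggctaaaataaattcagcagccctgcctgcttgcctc
Their first bases lay 107 and 74 bases before the start. Among the members with a promoter, Xirp2 was the only one whose window matched either motif. Its window held no TEAD core, which says only that these letters are not in this window.

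**Figure D2:**
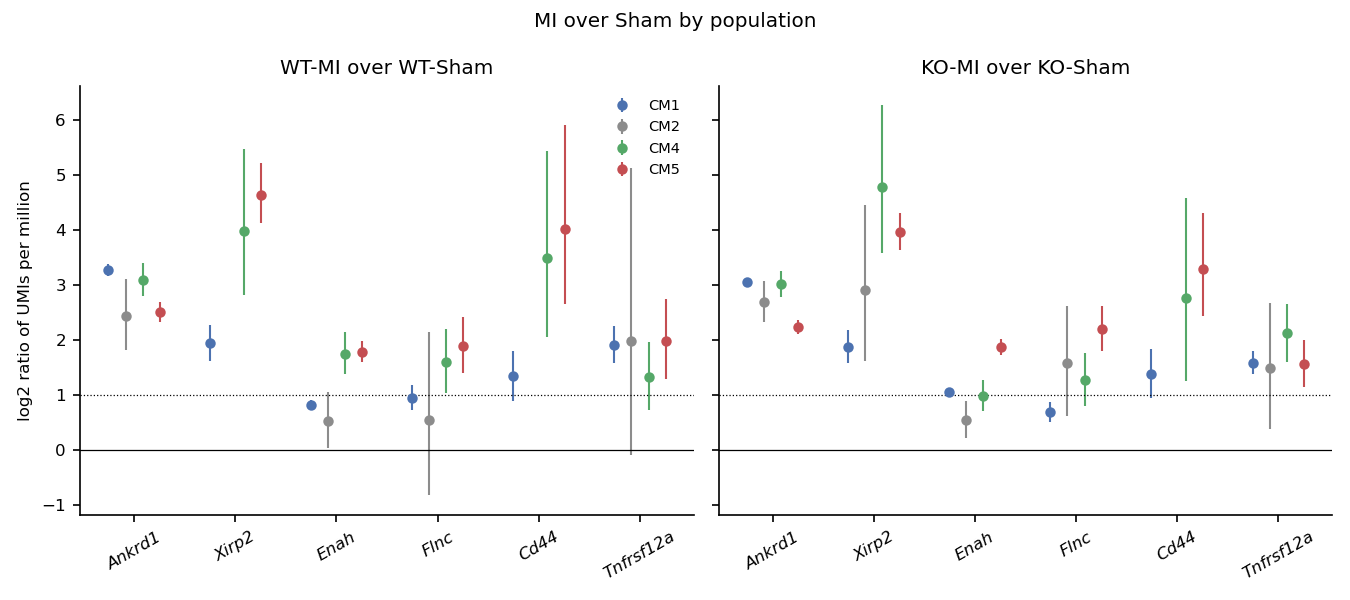
log2 ratio of MI over Sham for 6 injury genes in CM1, CM2, CM4 and CM5, for the WT and the KO label. Points are ratios of summed CPM, bars are 95% conditional binomial intervals, the dotted line marks 2-fold, and values with fewer than 20 UMIs over both libraries are left out. For Ankrd1 the CM5 ratio lies below the CM1 ratio, and for Xirp2, Enah, Flnc and Cd44 it lies above.

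Enah (ENSMUSG00000022995.16, chromosome 1, 181896384 to 182019990, minus strand) was detected in most nuclei without injury, in 69.1% in WT-Sham and 58.7% in KO-Sham before thinning. In CM1 its level was 435 CPM (415 to 456) in WT-Sham, 354 (341 to 368) in KO-Sham, 769 (746 to 792) in WT-MI and 734 (711 to 758) in KO-MI. In CM5 it was 772 (679 to 873), 702 (638 to 770), 2659 (2576 to 2743) and 2556 (2473 to 2641) in the same order. Again both MI libraries lay above both Sham libraries. CM1 after MI was level with CM5 of Sham, at a log2 ratio of -0.01 (-0.19 to 0.18) under the WT label and 0.06 (-0.08 to 0.21) under the KO label.

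The log2 ratio of MI over Sham for Enah in CM1 was 0.82 (0.74 to 0.90) under the WT label and 1.05 (0.98 to 1.12) under the KO label. In CM5 it was 1.78 (1.60 to 1.97) and 1.86 (1.72 to 2.01), which exceeded CM1 by 0.96 (0.76 to 1.17) and 0.81 (0.65 to 0.98). In CM4 it was 1.75 (1.37 to 2.14) under the WT label and 0.98 (0.70 to 1.27) under the KO label. Here the KO ratio in CM4 was lower than the WT ratio by 0.76 (0.29 to 1.24) on the log2 scale, but in thinned nuclei KO minus WT was -0.19. Under the other settings KO minus WT lay between -1.33, without nuclei that had a myeloid or endothelial UMI, and -0.49. The Sham level of Enah in CM4 differed as well, which was 189.6 CPM (149 to 238) in WT-Sham and 296 (258 to 338) in KO-Sham, while the MI levels were 636 (562 to 717) and 585 (507 to 672).

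Flnc (ENSMUSG00000068699.12, chromosome 6, 29433256 to 29461883, plus strand) showed the same order at lower counts. In CM1 its level was 52.5 CPM (45.8 to 60.0) in WT-Sham, 64.5 (58.8 to 70.6) in KO-Sham, 102 (93.5 to 110) in WT-MI and 104 (95.8 to 113) in KO-MI. In CM5 Flnc was at 111 (77.5 to 153), 89.7 (68.0 to 116), 408 (376 to 442) and 412 (379 to 447) in the same order. The intervals of MI and Sham did not overlap in either population. The log2 ratio of MI over Sham was 0.95 (0.72 to 1.18) in CM1 and 1.88 (1.40 to 2.41) in CM5 under the WT label, and 0.69 (0.51 to 0.87) and 2.20 (1.80 to 2.62) under the KO label. CM5 exceeded CM1 by 0.93 (0.39 to 1.51) and 1.505 (1.07 to 1.96). In CM4 the ratios were 1.60 (1.04 to 2.19) and 1.28 (0.80 to 1.76), between those of CM1 and CM5.

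Flnc was, beside Ankrd1, the only member with a TEAD core in its window, here on the opposite strand and therefore read as CATTCC, with its first base 104 bases before the later of its 2 RefSeq starts. The 250 bases before that start (GRCm38.p6, chr6:29433006-29433255, plus strand) are shown for comparison with Ankrd1, with the core in capitals:
Flnc: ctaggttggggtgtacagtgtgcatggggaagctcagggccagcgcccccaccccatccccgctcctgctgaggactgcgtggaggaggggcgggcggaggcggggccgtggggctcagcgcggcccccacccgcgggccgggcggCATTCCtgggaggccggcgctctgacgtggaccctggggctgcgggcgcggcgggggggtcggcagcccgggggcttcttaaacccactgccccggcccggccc
The windows of Enah and Tnfrsf12a matched none of the motifs, and that of Cd44 matched 1 GATA motif.

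Cd44 (ENSMUSG00000005087.17, chromosome 2, 102811141 to 102901665, minus strand) had low counts in Sham. In CM1 its level was 12.8 CPM (9.56 to 16.7) in WT-Sham, 8.86 (6.84 to 11.3) in KO-Sham, 32.2 (27.8 to 37.2) in WT-MI and 23.1 (19.2 to 27.6) in KO-MI. In CM5 it was 12.3 (3.35 to 31.5), 17.3 (8.64 to 31.0), 199.7 (178 to 224) and 169.5 (149 to 192), resting on 4, 11, 295 and 238 UMIs in the same order. In the Sham libraries CM5 was not above CM1 beyond counting error, with log2 ratios of -0.05 (-1.98 to 1.39) in WT-Sham and 0.97 (-0.11 to 1.90) in KO-Sham. After MI it was, by 6.19-fold in WT-MI and 7.33-fold in KO-MI.

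The log2 ratio of MI over Sham for Cd44 was 1.34 (0.89 to 1.81) in CM1 and 4.02 (2.65 to 5.91) in CM5 under the WT label, and 1.38 (0.94 to 1.84) and 3.29 (2.43 to 4.31) under the KO label. CM5 exceeded CM1 by 2.68 (1.23 to 4.62) and 1.91 (0.93 to 3.02). In CM4 the ratios were 3.49 (2.04 to 5.43) and 2.77 (1.25 to 4.57). Myeloid cells also express Cd44, and the summed level of the 11 myeloid markers over all nuclei was 102 CPM in WT-Sham and 206 in WT-MI, and 67.3 in KO-Sham and 139.9 in KO-MI. All 11 had UMIs in each library. Without the nuclei that had a UMI of a myeloid or endothelial marker, the Cd44 ratio was 1.17 (WT label) and 1.20 (KO label) in CM1 and 4.24 and 3.25 in CM5. A myeloid marker UMI was found in 51.9% of nuclei in WT-MI and 40.9% in KO-MI, against 28.9% in WT-Sham and 15.6% in KO-Sham. A nucleus without such a UMI can still hold myeloid RNA, and the source of its Cd44 UMIs was not tested.

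Tnfrsf12a (ENSMUSG00000023905.15, chromosome 17, 23675445 to 23677468, minus strand) was higher after MI in both CM1 and CM5. In CM1 its level was 22.6 CPM (18.3 to 27.7) in WT-Sham, 36.0 (31.8 to 40.6) in KO-Sham, 85.0 (77.7 to 92.8) in WT-MI and 108 (99.4 to 117) in KO-MI. CM5 had it at 55.3 (32.8 to 87.5), 86.6 (65.2 to 113), 218 (195 to 243) and 254 (229 to 282) in the same order. Both MI libraries lay above both Sham libraries in both populations. The log2 ratio of MI over Sham was 1.91 (1.59 to 2.24) in CM1 and 1.98 (1.29 to 2.75) in CM5 under the WT label, and 1.59 (1.37 to 1.80) and 1.55 (1.14 to 1.99) under the KO label. CM5 minus CM1 was 0.07 (-0.69 to 0.91) and -0.03 (-0.50 to 0.45), intervals that leave room for a difference of either sign. Under the WT label, where CM5 of Sham had 18 UMIs, the CM5 ratio was 3.38 without the 10 richest nuclei and 1.14 in thinned nuclei, with 2.15 and 1.87 in CM1, so the order of the populations turned with the setting. Exons make up all but 4.55% of the annotated span of this short gene, against 64.5% of intron in Ankrd1 and 92.5% in Cd44, and reads from introns were counted in these nuclei.

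The populations shared out each gene differently after MI. CM5 held 18.6% of all UMIs of WT-MI and 19.1% of those of KO-MI. Of the Xirp2 UMIs it held 84.6% in each, of Cd44 54.3% and 62.1%, of Flnc 45.5% and 46.5%, and of Enah 44.6% and 45.7%. It held 38.4% and 38.3% of the Ankrd1 UMIs and 35.1% and 33.9% of the Tnfrsf12a UMIs, so most of these UMIs lay in other populations, chiefly CM1. The mix also differed between populations. Per 100 Ankrd1 UMIs there were 5.69 Xirp2 UMIs in CM1, 10.6 in CM4 and 53.9 in CM5 of WT-MI, and 4.05, 10.6 and 41.8 in KO-MI. The red blood cell markers stood in CM1, CM4 and CM5 at 3829, 8411 and 3693 CPM in WT-MI. In KO-MI they stood at 2025, 3538 and 2192, and in CM2 at 18447 (WT-MI) and 1892 (KO-MI). In WT-MI the myeloid, fibroblast and endothelial markers were at 396, 2321 and 377 CPM in CM4, against 191, 895 and 92.6 in CM1. In KO-MI these were at 201, 2203 and 338 in CM4, against 132, 905 and 90.6 in CM1. How much of the members' levels in CM1 and CM4, the low Xirp2 level of CM1 among them, is such free RNA was not tested. The matrix held only cardiomyocyte nuclei, and a cell type that lacks the injury genes was not analysed here.

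**Figure D3:**
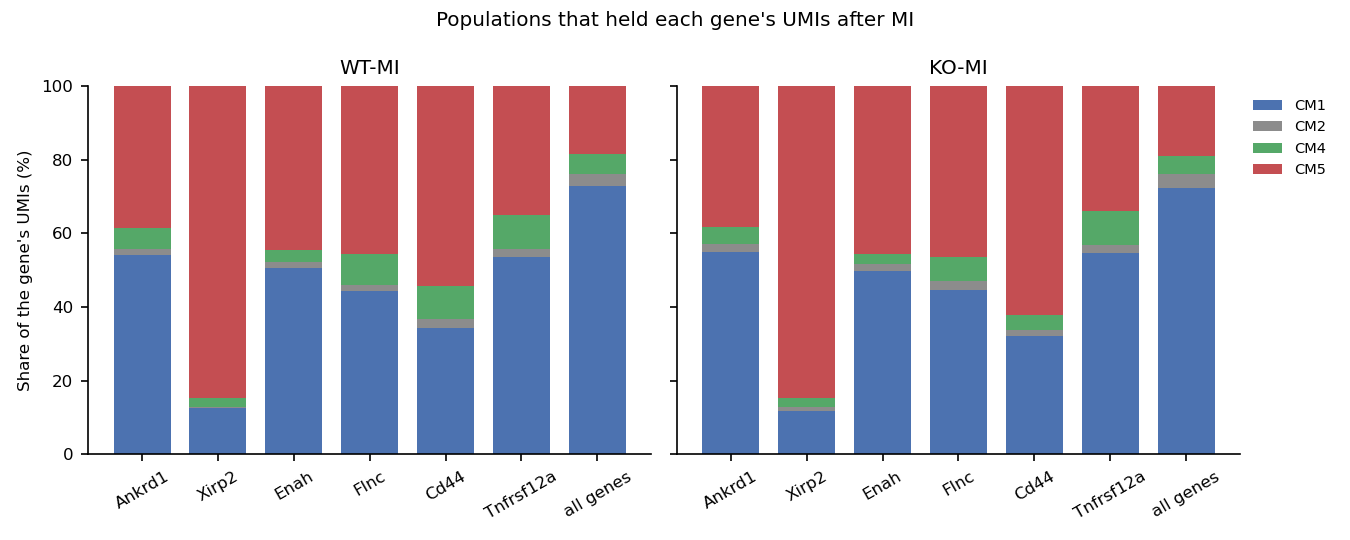
Share of each gene's UMIs (percent) in CM1, CM2, CM4 and CM5 in WT-MI and KO-MI, with the share of all UMIs as the last bar. CM5 holds 84.6% of the Xirp2 UMIs in both libraries but 38.4% (WT-MI) and 38.3% (KO-MI) of the Ankrd1 UMIs.

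The share of nuclei labelled CM5 was 6.33% in WT-Sham, 7.03% in KO-Sham, 16.9% in WT-MI and 19.2% in KO-MI. Since a larger CM5 share alone would raise the level over all nuclei, the levels were recomputed with the shares of UMIs per population held fixed. With MI levels at the Sham shares, the median log2 ratio of the 6 genes to Sham was 1.90 (range 1.01 to 3.20) under the WT label and 1.72 (1.01 to 3.08) under the KO label. The observed medians were 2.21 (1.34 to 4.26) and 2.07 (1.32 to 4.09). With Sham levels at the MI shares it was 0.14 (0.01 to 0.42) and 0.16 (0.04 to 0.59). For each gene, MI levels at the Sham shares stayed above the Sham level. As folds, Xirp2 went from 19.2 observed to 9.22 at the Sham shares under the WT label and from 17.0 to 8.43 under the KO label, and Ankrd1 from 9.96 to 8.48 and from 8.51 to 7.28.

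The gap was widest for Xirp2. Its level over all nuclei was 26.3 CPM in WT-Sham and 504 in WT-MI, and the latter came to 242 with MI levels at the Sham shares, while Sham levels at the MI shares came to 34.7. For KO-Sham and KO-MI the observed levels were 24.0 and 408, with 203 at the Sham shares and 36.3 for Sham levels at the MI shares. For Ankrd1 the level went from 207 to 2060.3 in the WT libraries, with 1755 at the Sham shares, and from 253 to 2157 in the KO libraries, with 1844 at the Sham shares. For Sham levels at the MI shares both sides come from the same UMIs, which the intervals in the plot treat as independent.

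**Figure D4:**
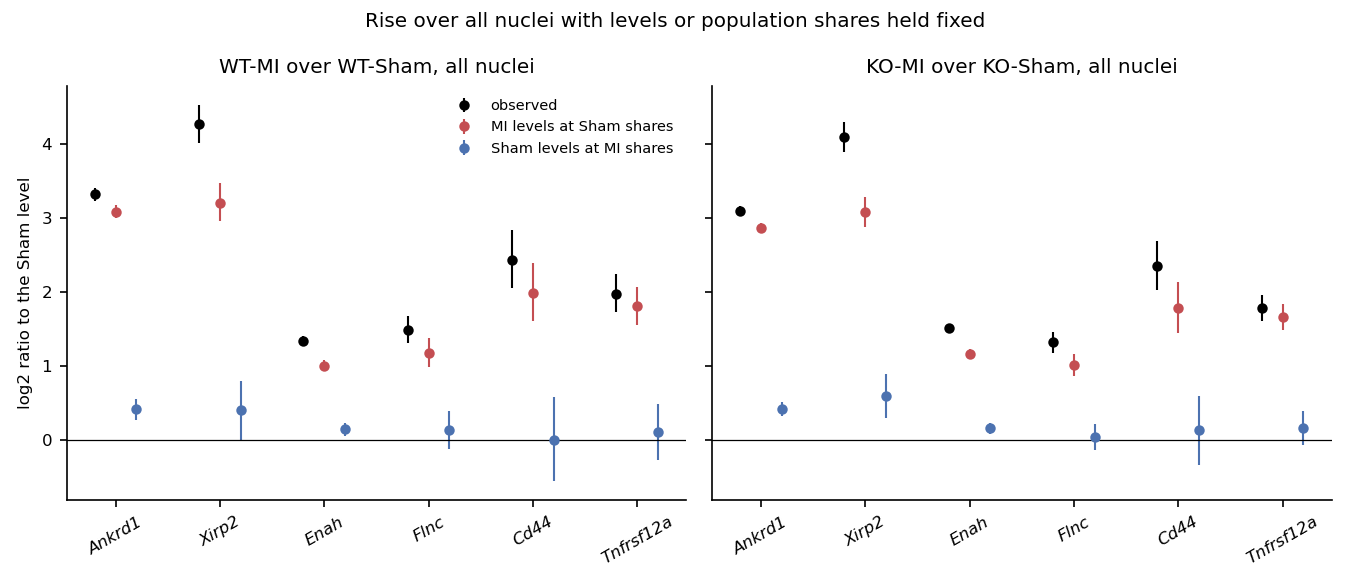
log2 ratio to the Sham level over all nuclei for 6 injury genes: as observed (black), with MI levels at the Sham population shares (red) and with Sham levels at the MI population shares (blue), for the WT and the KO label. Bars are 95% intervals from counting error. The red points lie close to the black ones and the blue points close to 0, with the widest gap between black and red for Xirp2.

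Nuclei with several of the injury genes detected were more common after MI in every large population. Such a share rises when each gene alone is detected more often, and whether the genes occurred together beyond that was not tested. After thinning to 1000 UMIs, 3 or more of the 7 genes were detected in 0.729% of CM1 nuclei in WT-Sham (0.315 to 1.43), 0.802% in KO-Sham (0.497 to 1.22), 10.3% in WT-MI (8.78 to 12.0) and 11.4% in KO-MI (9.72 to 13.2). In CM4 the shares were 1.07% (0.130 to 3.81), 1.42% (0.464 to 3.29), 20.9% (15.4 to 27.4) and 17.8% (11.4 to 25.9). In CM5 they were 5.62% (1.85 to 12.6), 6.84% (3.96 to 10.9), 69.3% (64.1 to 74.2) and 62.8% (57.6 to 67.9). The shares in the MI libraries were thus above those of the Sham libraries in each population. The shares rose in the order CM1, CM4 and CM5, but the intervals of CM1 and CM4 overlapped in WT-Sham, KO-Sham and KO-MI. Those of CM4 and CM5 overlapped in WT-Sham. At least 1 of the genes was detected in 83.7% of CM1 nuclei in WT-MI and 84.1% in KO-MI, against 47.2% and 46.7% in WT-Sham and KO-Sham.

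**Figure D5:**
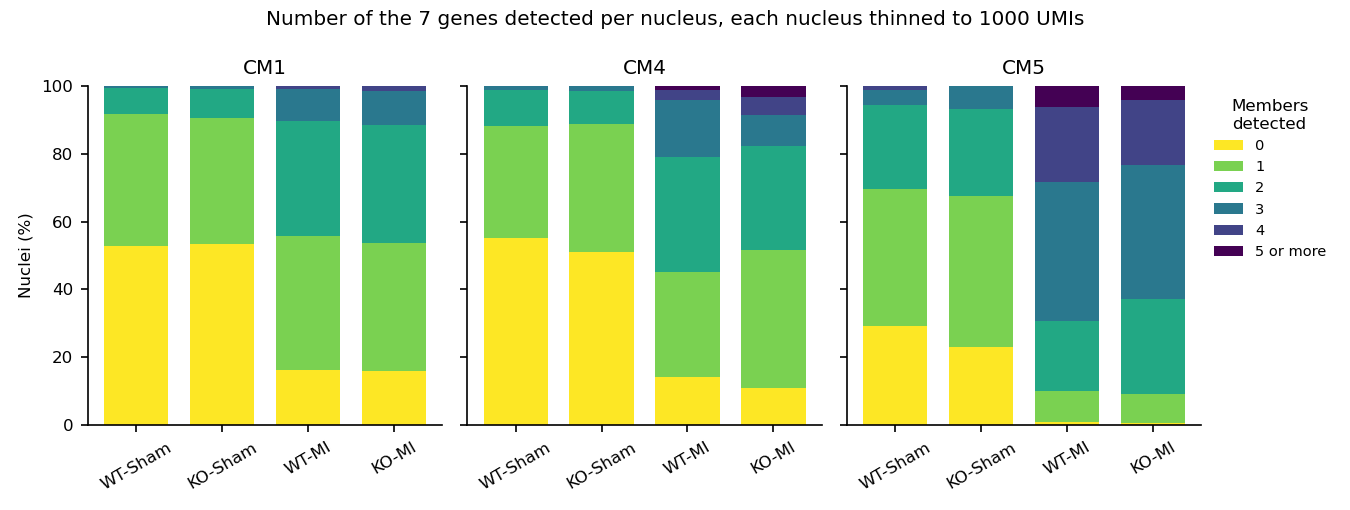
Share of nuclei (percent) by the number of the 7 injury genes detected, in CM1, CM4 and CM5 of the 4 libraries, each nucleus thinned to 1000 UMIs. Nuclei with none of the genes make up 52.8% (WT-Sham) and 53.3% (KO-Sham) of CM1 against 16.3% (WT-MI) and 15.9% (KO-MI), and nuclei with 3 or more make up 69.3% (WT-MI) and 62.8% (KO-MI) of CM5.

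The UMIs in CM1 after MI were not held by a few nuclei, and how much of them was free RNA was not tested. The 10 CM1 nuclei with the most Ankrd1 held 3.58% of its CM1 UMIs in WT-MI and 3.38% in KO-MI, and for Xirp2 the shares were 11.7% and 15.3%. Nor did the few CM1 nuclei with a Xirp2 UMI stand out for Ankrd1. In thinned CM1 nuclei of WT-MI, Ankrd1 was detected in 61.8% (52.1 to 70.9) of the 110 nuclei with a Xirp2 UMI and in 61.9% (59.2 to 64.6) of the 1305 without. In KO-MI it was detected in 70.4% (59.2 to 80.0) of 81 and in 67.1% (64.4 to 69.7) of 1227. For Enah the shares were 56.4% (46.6 to 65.8) and 48.7% (45.9 to 51.4) in WT-MI, and 50.6% (39.3 to 61.9) and 46.0% (43.2 to 48.9) in KO-MI. The intervals overlapped for both genes in both libraries, so the counts do not resolve a difference.

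The authors also deposited a label transferred to each nucleus from an earlier reference. Of the 6440 nuclei labelled CM1, 5305 had the transferred label CM1, and of the 1017 labelled CM5, 743 had the transferred label CM2. In turn, 197 of the 275 nuclei labelled CM2 had the transferred label CM5. The names CM2 and CM5 thus cross between the 2 sets of labels, and whether they name the same cells was not tested. In WT-MI the 268 CM5 nuclei transferred as CM2 had Xirp2 at 2736 CPM (2642 to 2832), while the 57 transferred as CM1 had it at 599 (506 to 705). In KO-MI the levels were 2133 (2049 to 2219) in 287 nuclei and 387 (305 to 484) in 50. For Ankrd1 these groups were much closer, at 4399 (4280 to 4521) and 3886 (3643 to 4141) in WT-MI and 4388 (4267 to 4511) and 4275 (3991 to 4574) in KO-MI. Within CM5, then, Xirp2 followed the transferred label and Ankrd1 did so far less. The transferred labels also come from the expression of the same nuclei, so these values are a description.

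Between the genotype labels the injury genes differed little. In CM1 no member was called higher or lower in KO-MI than in WT-MI, where 0.612% of all genes were called higher and 0.728% lower, and in CM5 none was either, where 1.43% and 0.63% were. The exceptions lay in small populations. Cd44 was called lower in CM4 of KO-MI, with 16 UMIs against 48 and a log2 ratio of -1.29 (-2.21 to -0.45), where 4.48% of all genes were called lower and 2.15% higher. The summed myeloid markers were also lower in KO-MI than in WT-MI, at 201 against 396 CPM in CM4 and 132 against 191 in CM1. How far myeloid RNA contributed to Cd44 in either population was not tested. Xirp2 was called higher in CM2, with 32 UMIs against 13 and a log2 ratio of 1.13 (0.16 to 2.18), where 2.02% of all genes were called higher and 1.45% lower. In KO-MI 1 nucleus held 14 of these 32 UMIs, and a Xirp2 UMI was found in 20.9% of CM2 nuclei against 17.5% in WT-MI. Both calls end in nuclei thinned to 1000 UMIs, where the log2 ratios were 0.77 for Xirp2 and -0.89 for Cd44. Smaller differences had intervals clear of 0. In CM1 of the MI libraries, KO over WT gave log2 ratios of -0.39 (-0.59 to -0.19) for Xirp2, -0.48 (-0.82 to -0.14) for Cd44 and 0.35 (0.17 to 0.52) for Tnfrsf12a, and in CM5 it was -0.34 (-0.42 to -0.27) for Xirp2. In CM1 of the Sham libraries Tnfrsf12a was also higher in KO, by 0.67 (0.32 to 1.02), and Ankrd1 was, by 0.32 (0.19 to 0.46).

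The ratio of MI over Sham was slightly smaller under the KO label for Ankrd1, by 0.22 (0.08 to 0.36) in CM1 and 0.27 (0.05 to 0.50) in CM5 on the log2 scale. For Xirp2 in CM5 it was smaller by 0.68 (0.05 to 1.34), and for Enah in CM1 it was larger by 0.23 (0.12 to 0.34). In thinned nuclei KO minus WT was -0.06 for Ankrd1 in CM1, -0.51 for Ankrd1 in CM5, -0.16 for Xirp2 in CM5 and 0.14 for Enah in CM1. These intervals do not hold the spread between litters, pools or library preparations, which cannot be told apart from the label here.

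Genes linked to the members were followed in lists fixed by name, to see how far the difference after MI extended around them. Of the 15 genes of the stretch, SRF and YAP response, 3 (WT label) and 4 (KO label) were called higher in CM1, where 3.96% and 4.03% of all genes were, and 6 and 7 in CM5, where 7.39% and 10.1% were. The median log2 ratios in CM1 were 0.55 and 0.57, against -0.07 and 0.03 for all genes tested. Ccn2 (connective tissue growth factor), a matrix protein gene and YAP target, went from 6.26 CPM in WT-Sham and 11.7 in KO-Sham to 136 in WT-MI and 149 in KO-MI in CM1. In CM5 it went from 73.8 and 80.3 to 659 and 677, so its log2 ratio, like that of Ankrd1, was higher in CM1 (4.44 and 3.67) than in CM5 (3.16 and 3.08). Acta1, the skeletal alpha-actin of the fetal program, had log2 ratios in CM1 of 3.28 (2.81 to 3.80) and 2.42 (2.16 to 2.69), and Ccn1 had 2.89 (2.19 to 3.68) and 2.09 (1.63 to 2.57). Actb, the gene of this list with the most UMIs, had 0.53 and 0.31 and was not called.

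Of the 10 other border zone genes, 7 and 9 were called higher in CM1 (3.96% and 4.03% of all genes). In CM5 it was 8 of 10 under the WT label (7.39% of all genes) and 8 of the 9 that reached 20 UMIs under the KO label (10.1%). The median log2 ratios in CM1 were 3.17 and 2.98. Nppa (atrial natriuretic peptide) went from 148 and 256 CPM in CM1 of WT-Sham and KO-Sham to 1961 and 2374 in WT-MI and KO-MI. Nppb (brain natriuretic peptide) went from 40.2 and 105 to 736 and 827, Clu (the chaperone clusterin) from 28.7 and 30.9 to 71.6 and 84.7, and Timp1 (a metalloproteinase inhibitor) from 5.06 and 7.91 to 91.4 and 70.6. All 4 had intervals above 0 in both CM1 and CM5.

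Of the 21 Z-disc and filamin partners, 19 (WT label) and 20 (KO label) reached 20 UMIs in CM1, and 1 was called higher under each label, a share near that of all genes (3.96% and 4.03%), with median log2 ratios of 0.30 and 0.30 against -0.07 and 0.03 for all genes tested. It was Hspb8, a small heat shock protein of the filamin-clearing chaperone complex with Bag3, at 1.21 (0.57 to 1.89) and 1.26 (0.73 to 1.80). Ttn, which encodes titin, was at 0.22 and 0.33 and was not called. Of the 17 partners of the Xin proteins at the intercalated disc, 0 were called in either direction in CM1, where 3.96% and 4.03% of all genes were called higher and 4.43% and 3.76% lower under the WT and KO labels. In CM5, 12 and 13 of the 17 had ratios above 0, with medians of 0.29 and 0.49 against -0.04 and 0.09 for all genes. There 1 was called higher under each label, where 7.39% and 10.1% of all genes were. Called lower were 1 under the WT label and 2 under the KO label, where 8.92% and 8.41% of all genes were. Ctnna3 (alpha-T-catenin), the gene of that list with the most UMIs, was lower after MI in CM5, at 6494 and 5210 CPM in WT-Sham and KO-Sham and 2663 and 2117 in WT-MI and KO-MI.

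Of the 19 genes on the list of Cd44 and Tnfrsf12a ligands, adaptors and matrix, 15 reached 20 UMIs in CM1 and 12 in CM5 under each label. Of these, 3 (WT label) and 2 (KO label) were called higher in CM1 (3.96% and 4.03% of all genes) and 4 and 5 in CM5 (7.39% and 10.1%). Spp1, which encodes the Cd44 ligand osteopontin, went from 1.20 CPM in WT-Sham and 7.50 in KO-Sham to 207 and 202 in WT-MI and KO-MI in CM1, and stood at 209.8 and 204 in CM5. Spp1 is also made by macrophages. Its level in CM1 and CM5 was alike, while CM4 was higher, at 342 CPM in WT-MI and 268 in KO-MI. The myeloid markers stood in CM1, CM4 and CM5 at 191, 396 and 215 CPM in WT-MI and at 132, 201 and 165 in KO-MI. The part of free RNA in Spp1 was not tested. Hbegf, a growth factor gene, had log2 ratios of 1.18 (0.63 to 1.76) and 1.22 (0.77 to 1.68) in CM1 and of 5.33 (2.84 to 10.6) and 4.18 (3.12 to 5.51) in CM5, a pattern like that of Cd44 with a wide interval from few Sham UMIs. Nfkb1 had the most UMIs of this list and log2 ratios in CM1 of -0.12 and 0.10.

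Over the 16 sums of 4 libraries and 4 populations, the 6 members resembled one another to different degrees. Pearson correlations of log2(CPM + 10) ran from 0.62 (Enah with Tnfrsf12a) to 0.93 (Enah with Xirp2), across sums that share libraries and depth, and are given as a description. Among 11622 other genes with 100 or more UMIs, those most like the mean profile of the members were Ccn2 (r = 0.971), Azin1 (0.967), Uck2 (0.961), Ier3 (0.958), Cald1 (0.956), Slc16a3 (0.953), Col12a1 (0.951), Txnrd1 (0.951), Adam9 (0.9501) and Ccn1 (0.949). Likeness of shape is not likeness of size: the log2 ratio of MI over Sham in CM1 was 0.48 and 0.45 for Azin1 but 2.47 and 2.48 for Col12a1.

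Each member had its own nearest genes. Ankrd1 was most like Ccn2 (0.985) and Slc16a3 (0.945), and Xirp2 most like Erc2 (0.971) and Uck2 (0.962). Enah was most like Neat1 (0.970) and Uck2 (0.969), and Flnc most like Ccn1 (0.953) and Ier3 (0.951). Cd44 was most like Lrp8 (0.967) and Ubash3b (0.953), and Tnfrsf12a most like Clu (0.967) and Pdlim7 (0.961).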

How the data were processed

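Nuclei from pooled ventricular tissue of 4 libraries had been sequenced with a 10x Genomics 3′ kit, whose version the labels and the methods give differently. The authors aligned reads with Cell Ranger (version not given in the sources used here) to an mm10/GRCm38 pre-mRNA reference, removed doublets with Scrublet, removed nuclei with too few or too many detected genes, kept cardiomyocytes with Seurat 3, and deposited raw UMI counts per gene and nucleus with population labels. No doublet caller was run again. The nuclei kept held 537 to 2499 detected genes, so the filter removed the nuclei with more. The sum of each column equalled the deposited UMI count for 100% of nuclei, and 12 other deposited columns of values were not used.

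UMI counts were summed by library and population (Python 3.11.15, numpy 2.4.6, scipy 1.17.1) and scaled to CPM. Intervals were exact Poisson, Clopper-Pearson or conditional binomial at 95%. Differences of ratios combined both intervals by square-and-add, and levels at fixed shares had gamma intervals. For a ratio, a count of 0 was replaced by 3 UMIs, and none was formed where neither count exceeded 3. Thinning drew 1000 UMIs per nucleus and left out 7 nuclei. The steps were tested on simulated counts. GENCODE M21 held 22122 of the 22574 symbols (98.0%) and all 7 members; RefSeq promoter sequences were found for 6. The release the authors used is not given in the sources used here.

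Groups came from the sample titles. The members, lists and rule for named genes (of each list, the genes called in CM1 under both labels, at most 4, and that with most UMIs; the 10 genes most like the members and 2 per member; the targeted gene) were chosen with earlier results of these data known. Alternatives changed the scaling (edgeR 4.0.16 TMM), the totals, depth, labels, nuclei kept and limits of the call. A label setting kept nuclei whose transferred label was the commonest for their population, which was CM5 for CM2 and CM2 for CM5.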

Additional observations from a re-analysis of the deposited data

How the results depend on the processing

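No paired analysis was possible because each group has 1 library, and for the same reason no replicate could be left out. Of the 84 median ratios of MI over Sham recomputed under other settings, 83 stayed within the median of the members' intervals, as did all 84 of KO over WT, and no called ratio changed sign. Without the 10 nuclei richest in each gene, the median in CM5 under the WT label was 3.31, where WT-Sham has 89 nuclei. Of the 84 counts of called members, 79 stayed within 1.5 times. In CM2 the count was 2 under the WT label with TMM scaling, and under the KO label it was 1 with 50 or more UMIs, 1 in thinned nuclei and 1 without nuclei that had myeloid or endothelial UMIs, a setting chosen after seeing the data that kept 4260 nuclei. The last setting also gave 3 in CM4 under the KO label. Leaving out nuclei with any UMI of the myeloid, fibroblast, endothelial or red blood cell lists was planned but left 12 nuclei, so it gave no value. With shares of nuclei and UMIs per nucleus, the KO medians were 2.25 at fixed Sham shares and 2.61 as observed, since KO-MI nuclei were deeper than KO-Sham nuclei (medians of 3959 and 2572 UMIs).

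The share of nuclei with several members depends by its construction on depth and on how often each member is detected. MI minus Sham, for 3 or more members, came in percentage points under the WT and KO labels to 2.54 and 3.71 in CM1, 5.73 and 8.47 in CM4, and 39.8 and 27.1 in CM5 at 500 UMIs per nucleus. Without thinning it was 46.7 and 48.4 in CM1, 38.5 and 41.2 in CM4, and 63.9 in CM5 under the KO label. For 2 or more members it was 36.0 and 36.9 in CM1 and 43.2 and 37.2 in CM4. All of these were above 0, but without thinning the difference was larger in CM1 than in CM4, so the order of these populations depended on the setting.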
